A study of Mus musculus with 12 samples.

Results

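Neurod1, Neurod2, Neurod4, Neurod6, Nhlh1, Nhlh2 and Neurog1 are 7 basic helix-loop-helix (bHLH) transcription factor genes of the neuronal lineage, chosen by symbol from the 29641 genes listed in at least 1 of the 2 organs studied. All 7 were listed in the cochlea and 6 in the vestibule, where Neurog1 was not listed. Ribosome-bound RNA was sequenced from the inner ear of mice that lacked unmodified Gfi1, the gene of a zinc-finger repressor that the ear's mechanosensory hair cells need. The mice carried RiboTag, in which Cre recombinase switches on a ribosomal protein with an HA tag, and an HA antibody then pulls down ribosomes from cells that have carried Cre. Mutants were Gfi1Cre/Cre;RiboTagHA/HA, with Cre on both copies of Gfi1, and heterozygotes were Gfi1Cre/+;RiboTagHA/HA, with 1 unmodified copy, all at postnatal day 0 to 1. There were 3 libraries of each genotype from each organ, 12 in all. RiboTagHA/HA was shared by mutants and heterozygotes, and no mice without Cre were among the groups. Mutants had a higher dose of Cre as well as no unmodified Gfi1, and the effects of these on the set of tagged cells cannot be told apart. The labels call the cochlear material enriched for hair cells and the vestibular material enriched for vestibular cells.

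Neuronal bHLH proteins pair with the widely expressed E proteins and bind the E-box, CANNTG, in DNA to switch on neuronal genes. Id proteins, which have the helix-loop-helix part without the DNA-binding basic part, take up E proteins and so hold bHLH factors back. Several HES and HEY factors repress bHLH factors downstream of Notch. In the developing ear Neurog1 is the determination factor of the sensory neuron lineage and Neurod1, downstream of it, is needed for the survival of those neurons, while Atoh1, a related bHLH factor, makes hair cells.

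Values are CPM, read counts scaled to a common library total. The totals were 7531518 to 9363796 reads for cochlear libraries and 18951026 to 29370267 for vestibular ones. A read was worth 0.107 to 0.133 CPM among cochlear libraries and 0.0340 to 0.0528 CPM among vestibular ones. The cochlear and vestibular libraries were made with different kits per the labels' protocols, so organ and kit cannot be told apart and no level was compared between organs. Gfi1 itself had 75.1, 64.3 and 69.1 CPM in mutant cochleae, against 165, 106 and 126 CPM in heterozygous cochleae. It had 236, 198 and 208 CPM in mutant vestibules, against 534, 449.8 and 483 CPM in heterozygous vestibules. Gfi1 was thus lower in all mutants of both organs without being absent, by log2 fold changes of -0.90 ± 0.16 in the cochlea and -1.19 ± 0.13 in the vestibule (SE, limma, Benjamini-Hochberg adjusted p = 0.00355 and 0.00234). The labels do not say which exons the Cre allele replaces. The summed CPM of 12 hair cell markers was 3019 to 3584 in mutant cochleae, against 4408 to 5161 in heterozygous cochleae, and 9826 to 10594 in mutant vestibules, against 9214 to 9999 in heterozygous vestibules. Of these markers 7 fell in the cochlea, and in the vestibule 2 rose, Atoh1 and Pvalb. Markers of inner ear neurons were present in all libraries, with 1773 to 1887 CPM summed over 12 genes in mutant cochleae, against 1130 to 1244 CPM in heterozygous cochleae. In the vestibule that sum was 2426 to 2516 CPM in mutants, against 1494 to 1683 CPM in heterozygotes. Schwann and satellite glia markers summed to 261 to 306 CPM in mutant cochleae, against 232 to 315 CPM in heterozygous cochleae, and to 255 to 286 CPM in mutant vestibules, against 400.0 to 461 CPM in heterozygous vestibules. Macrophage markers summed to 2805 to 3415 CPM in mutant cochleae, against 2278 to 2883 CPM in heterozygous cochleae, with Fcgr3 and Lyz2 of 12 called higher. In the vestibule that sum was 7099 to 8302 CPM in mutants, against 7459 to 9376 CPM in heterozygotes, with none called. Mitochondrially encoded genes summed to 27152 to 69794 CPM in mutant cochleae, against 33207 to 78544 CPM in heterozygous cochleae, and to 1282 to 5156 CPM in mutant vestibules, against 2733 to 8626 CPM in heterozygous vestibules.

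In the cochlea, Neurod1 and Nhlh2 were close to undetected in heterozygotes and clearly present in all 3 mutants, and Neurod6 and Nhlh1, already present in heterozygotes, were higher in mutants. These 4 genes reached 1 CPM in 3 or more of the 6 libraries, the filter used, and were tested among 17985 genes with limma on log2(CPM + 1), a call being a Benjamini-Hochberg adjusted p under 0.05. All 4 were called higher, where 1.90% of all tested cochlear genes were called higher in mutants and 2.52% lower. Neurod1 and Nhlh2 reached 1 CPM in only 1 heterozygous library each and so passed that filter through the mutants, and the count of 4 of 4 is therefore a description. All mutants lay above all heterozygotes for these 4 genes, where 9.74% of tested genes had that order, and this too is a description. Neurod2, which was not tested, also had that order, with 2 reads in its lowest mutant against 1 read in its highest heterozygote. In pulled-down RNA from a whole tissue, a change in the number of tagged cells of a type and a change in the RNA per cell cannot be told apart.

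The promoters of the 4 genes that rose are shown as a description, and whether Gfi1 acts on them was not tested. They are 250 bases before to 50 bases after the RefSeq start in the build GRCm38.p6, read 5′ to 3′ on the gene's strand, and capitals mark CANNTG and AATC (or GATT, its other strand), the core known to be recognised by Gfi1. Neurod1 spans chr2:79456587-79456886 on the minus strand, Nhlh2 chr3:102009895-102010194 on the plus strand, Neurod6 chr6:55681214-55681513 on the minus strand and Nhlh1 chr1:172057547-172057846 on the minus strand.
Neurod1: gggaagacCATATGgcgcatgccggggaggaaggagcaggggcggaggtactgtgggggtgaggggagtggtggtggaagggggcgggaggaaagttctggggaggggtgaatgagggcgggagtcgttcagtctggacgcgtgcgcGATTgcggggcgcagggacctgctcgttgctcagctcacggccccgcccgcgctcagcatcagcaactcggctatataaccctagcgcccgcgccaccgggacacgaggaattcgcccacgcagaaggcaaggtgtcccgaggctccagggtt
Nhlh2: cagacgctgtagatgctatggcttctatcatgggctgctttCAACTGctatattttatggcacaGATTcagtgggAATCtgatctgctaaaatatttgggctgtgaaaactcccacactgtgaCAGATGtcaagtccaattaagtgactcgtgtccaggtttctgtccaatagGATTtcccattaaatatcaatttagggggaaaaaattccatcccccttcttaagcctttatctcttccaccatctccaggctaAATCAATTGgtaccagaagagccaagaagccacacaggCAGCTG
Neurod6: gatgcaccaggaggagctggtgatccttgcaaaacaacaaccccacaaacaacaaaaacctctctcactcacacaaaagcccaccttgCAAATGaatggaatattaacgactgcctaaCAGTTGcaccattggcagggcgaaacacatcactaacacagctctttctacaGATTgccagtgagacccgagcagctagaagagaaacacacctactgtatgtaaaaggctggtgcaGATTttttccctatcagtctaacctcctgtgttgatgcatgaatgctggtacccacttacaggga
Nhlh1: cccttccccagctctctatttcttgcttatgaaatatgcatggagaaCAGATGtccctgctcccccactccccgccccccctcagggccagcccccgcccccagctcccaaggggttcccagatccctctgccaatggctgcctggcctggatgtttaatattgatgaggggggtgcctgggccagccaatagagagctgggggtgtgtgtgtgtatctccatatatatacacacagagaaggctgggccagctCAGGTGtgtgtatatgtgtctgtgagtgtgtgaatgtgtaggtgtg

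In these windows CANNTG occurred 1 time in Neurod1, 4 times in Nhlh2, 2 times in Neurod6 and 2 times in Nhlh1. Of 32851 mouse promoters of the same length, 72.3% held at least 1 CANNTG, so that its presence does not set these genes apart. CAGATG, an E-box form known for neuronal bHLH factors, lay in the windows of Nhlh2 and Nhlh1, and 17.2% of all promoters held it on either strand. CAGCTG, the other E-box form searched, lay among these 4 only in Nhlh2, and 16.3% of all promoters held it. AATC on either strand occurred 1 time in Neurod1, 4 times in Nhlh2, 2 times in Neurod6 and 0 times in Nhlh1. As 73.1% of all promoters held it, its presence does not set these genes apart either. In Nhlh2 an AATC overlapped a CAATTG. The longer Gfi1 form AATCACNGC was in none of the members' promoters and in 0.919% of all promoters. A match is a run of letters and no measure of binding.

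Neurod1 (ENSMUSG00000034701, chr2:79452521-79456751, minus strand, GRCm38) had 83.5, 180.0 and 82.6 CPM in mutant cochleae (668, 1395 and 713 reads), against 1.78, 0.664 and 0.107 CPM in heterozygous cochleae (14, 5 and 1 reads). Every mutant was far above every heterozygote, and the lowest heterozygote rested on a lone read. The means were 115 ± 56.0 CPM in mutants and 0.850 ± 0.851 CPM in heterozygotes (SD, n = 3 each). The fold change on the log2(CPM + 1) scale, where changes of low genes come out too small, was 5.98 ± 0.35 (SE, 95% interval 5.23 to 6.73, limma adjusted p = 6.65e-07), the third from the top of 17985 tested genes. The summed reads, scaled by the library totals, gave a ratio of 141 (95% interval 91.1 to 231, counting error only). Of the exon bases of Neurod1, 13.0% are shared with Cerkl on the same strand and Gm26755 on the other, and how the authors counted such reads is not given in the labels or files. Cerkl had 5.50, 10.5 and 7.06 CPM in mutant cochleae, against 5.59, 4.65 and 5.34 CPM in heterozygous cochleae, which was below Neurod1 in every mutant and above it in every heterozygote.

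Nhlh2 (ENSMUSG00000048540, chr3:102010076-102015492, plus strand), a factor of developing neurons known for its role in the hypothalamus, had 8.75, 19.9 and 9.15 CPM in mutant cochleae (70, 154 and 79 reads), against 0.254, 1.06 and 0.214 CPM in heterozygous cochleae (2, 8 and 2 reads). The groups did not overlap, and again the mutant replicate 2 was the highest. The means were 12.6 ± 6.31 CPM in mutants and 0.510 ± 0.479 CPM in heterozygotes (SD, n = 3 each), with a log2 fold change of 3.12 ± 0.34 (SE, 95% interval 2.40 to 3.84, limma adjusted p = 8.08e-05). Neurod1 and Nhlh2 kept their calls in each of the 15 alternative settings, including the removal of any library.

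Neurod6 (ENSMUSG00000037984, chr6:55677822-55681263, minus strand), known from maturing excitatory neurons of the cortex, had 18.4, 49.0 and 22.8 CPM in mutant cochleae, against 7.11, 9.56 and 11.9 CPM in heterozygous cochleae. It was readily detected in both genotypes, and all mutants were above all heterozygotes. The means were 30.1 ± 16.6 CPM in mutants and 9.51 ± 2.37 CPM in heterozygotes (SD, n = 3 each), a log2 fold change of 1.46 ± 0.31 (SE, 95% interval 0.80 to 2.12, limma adjusted p = 0.0122). The call was lost without heterozygous replicate 1 (1.29, adjusted p = 0.0753) and without both replicate 2 libraries (1.07, adjusted p = 0.121, limma). With the replicate number as a block the limma adjusted p was 4.25e-05, while the same-numbered pairs differed by 0.89 to 2.24 on the log2(CPM + 1) scale.

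Nhlh1 (ENSMUSG00000051251, chr1:172052292-172057573, minus strand), a relative of Nhlh2 found in newly formed neurons, had 112, 229 and 115 CPM in mutant cochleae, against 93.5, 49.3 and 59.2 CPM in heterozygous cochleae. The lowest mutant and the highest heterozygote were close, while mutant replicate 2 stood well above the other libraries. The means were 152 ± 66.6 CPM in mutants and 67.3 ± 23.2 CPM in heterozygotes (SD, n = 3 each), a log2 fold change of 1.13 ± 0.26 (SE, 95% interval 0.56 to 1.70, limma adjusted p = 0.0250). This call rested on the replicate 2 libraries: without that mutant library the log2 fold change was 0.80 (adjusted p = 0.106), without that heterozygous library 0.94 (adjusted p = 0.132) and without both 0.60 (adjusted p = 0.311, limma). It was also lost with edgeR on the recovered reads (1.12, adjusted p = 0.0681), with median-of-ratios scaling (1.08, adjusted p = 0.0626, limma) and without the filter on low values (limma adjusted p = 0.0573). With the replicate number as a block the limma adjusted p of Nhlh1 was 0.000778. The same-numbered pairs were uneven, however, with differences of 0.25 to 2.19 on the log2(CPM + 1) scale.

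**Figure D1:**
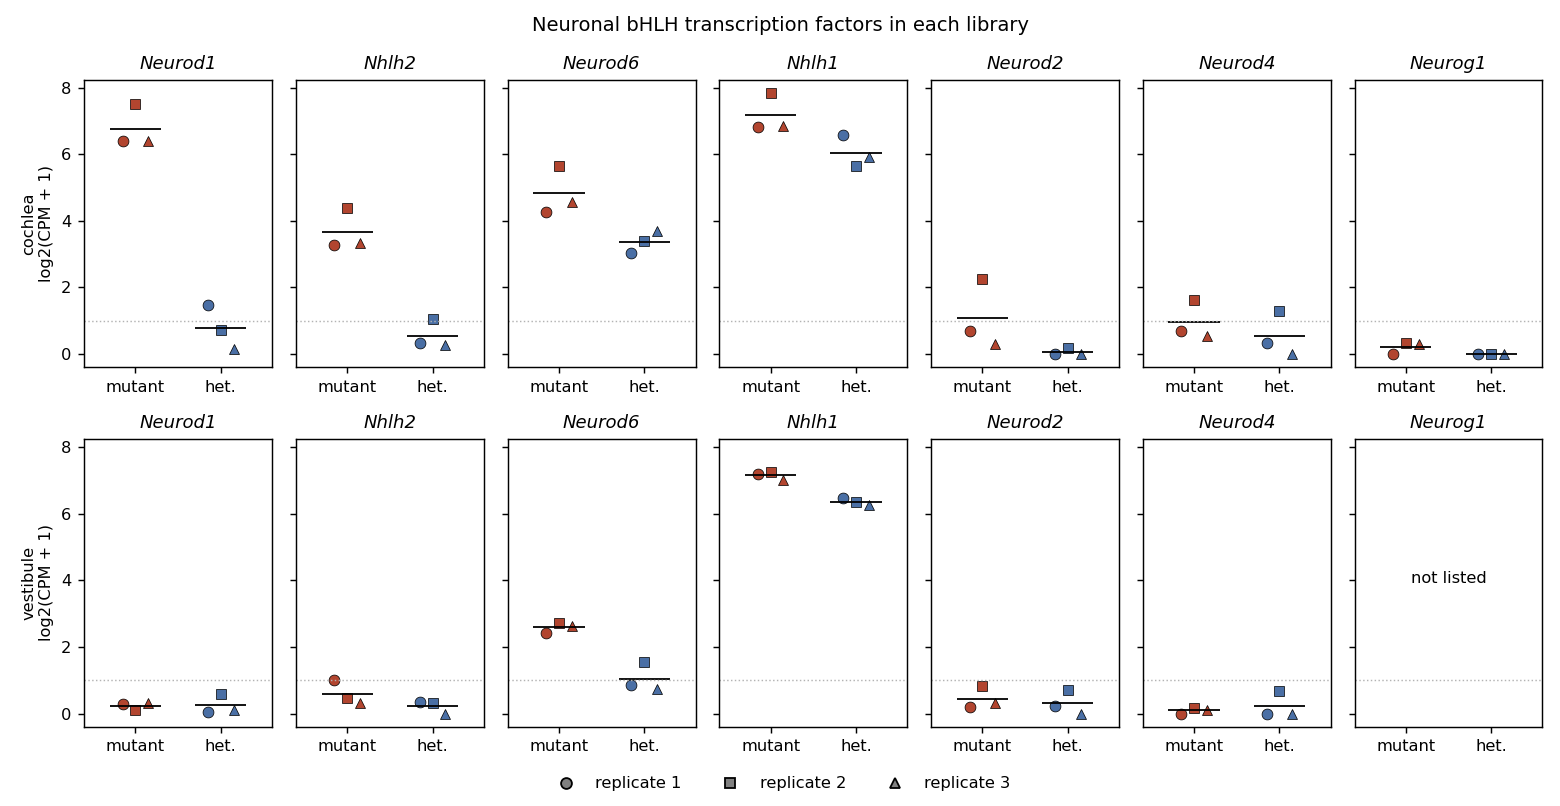
Log2(CPM + 1) of each of the 7 genes in the 12 libraries, mutants left of heterozygotes, with the cochlea and the vestibule apart. Each point is a library, its shape is the replicate number, the bar is the group mean on the log2 scale and the dotted line marks 1 CPM. In the cochlea the 3 mutants of Neurod1, at 82.6 to 180.0 CPM, lie far above the heterozygotes, at 0.107 to 1.78 CPM, and in the vestibule all libraries of Neurod1 lie below 1 CPM.

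Neurod2, Neurod4 and Neurog1 were too low in the cochlea to be tested. Neurod2 (ENSMUSG00000038255, chr11:98325415-98329648, minus strand), a factor of cortical neurons, had 0.625, 3.74 and 0.232 CPM in mutant cochleae (5, 29 and 2 reads), against 0, 0.133 and 0 CPM in heterozygous cochleae (0, 1 and 0 reads). All mutants were above all heterozygotes, but most of the reads came from mutant replicate 2. The 36 mutant reads against 1 heterozygous read gave a scaled ratio of 36.6 with a 95% counting interval of 6.16 to 1484, and the exact two-sided permutation test gave p = 0.1, the smallest that 3 libraries against 3 allow. Neurod4 (ENSMUSG00000048015, chr10:130268152-130280240, minus strand), which acts in early retinal and hindbrain neurons, had 0.625, 2.06 and 0.463 CPM in mutant cochleae, against 0.254, 1.46 and 0 CPM in heterozygous cochleae. Its groups overlapped (exact two-sided permutation p = 0.5), with the mutant higher in all 3 same-numbered pairs, where an exact paired test of 3 pairs cannot go below p = 0.25. Neurog1 (ENSMUSG00000048904, chr13:56250478-56252163, minus strand) had 0, 0.258 and 0.232 CPM in mutant cochleae (0, 2 and 2 reads) and 0 CPM in the 3 heterozygous cochleae. It was the only one of the 7 under 1 CPM in every cochlear library, and at or under the 3 reads (0.320 to 0.398 CPM) that a count of 0 allows, so that no fold is given.

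The 4 higher genes kept nearly fixed proportions among the mutant cochleae, although their sum differed between libraries. The summed CPM of the 7 genes was 223, 484 and 230.5 in mutant cochleae, against 103, 62.1 and 71.3 in heterozygous cochleae. Of that sum Neurod1 held 35.8% to 37.4% in mutants, against 0.150% to 1.73% in heterozygotes. Nhlh1 held 47.3% to 49.9% in mutants, against 79.3% to 90.9% in heterozygotes. Neurod6 held 8.22% to 10.1% in mutants, against 6.91% to 16.6% in heterozygotes, and Nhlh2 held 3.91% to 4.11% in mutants, against 0.247% to 1.71% in heterozygotes. In mutants the sum was thus mostly made of Nhlh1 and Neurod1, where in heterozygotes it was mostly Nhlh1. Each of the 7 genes had its highest cochlear CPM in mutant replicate 2, for Neurog1 with 2 reads against 2 in mutant replicate 3. Among heterozygous cochleae replicate 2 was also the highest for Nhlh2, Neurod4 and Neurod2, the last with 1 read. It was not the highest heterozygote for Neurod1, Neurod6 or Nhlh1. Dcx, of the downstream gene list given below, was highest in replicate 2 of both genotypes. It had 605, 1308 and 361 CPM in mutant cochleae, against 502, 1014 and 198 CPM in heterozygous cochleae. The summed inner ear neuron markers of mutant replicate 2, at 1773 CPM, were the lowest of the 3 mutants. Ntrk2 and Ntrk3 of that marker list were highest in this library, at 87.1 and 67.1 CPM, so the sum does not stand for each marker. Both were also highest in replicate 2 among heterozygous cochleae, at 81.9 and 52.7 CPM. The other markers of that list were not compared library by library. The part of the neuron content in these results was not tested.

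Divided by exon length, the order of levels in mutant cochleae was Nhlh1 at 61.6 ± 27.0, Neurod1 at 42.3 ± 20.5, Neurod6 at 14.0 ± 7.71 and Nhlh2 at 2.32 ± 1.16 CPM per kilobase of exon (SD, n = 3). Nhlh1 and Neurod1 overlapped over the libraries, at 45.3 to 92.8 and 30.3 to 66.0 CPM per kilobase, and each later neighbour of these 4 was separated from the one before it. Neurod2, Neurod4 and Neurog1 followed at 0.488 ± 0.612, 0.314 ± 0.264 and 0.0968 ± 0.0842 CPM per kilobase and overlapped. In heterozygous cochleae Nhlh1 led at 27.3 ± 9.42 CPM per kilobase, Neurod6 followed at 4.42 ± 1.10, and Neurod1 was at 0.311 ± 0.312, which overlapped Neurod4 at 0.171 ± 0.233 and Nhlh2 at 0.0941 ± 0.0884.

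**Figure D2:**
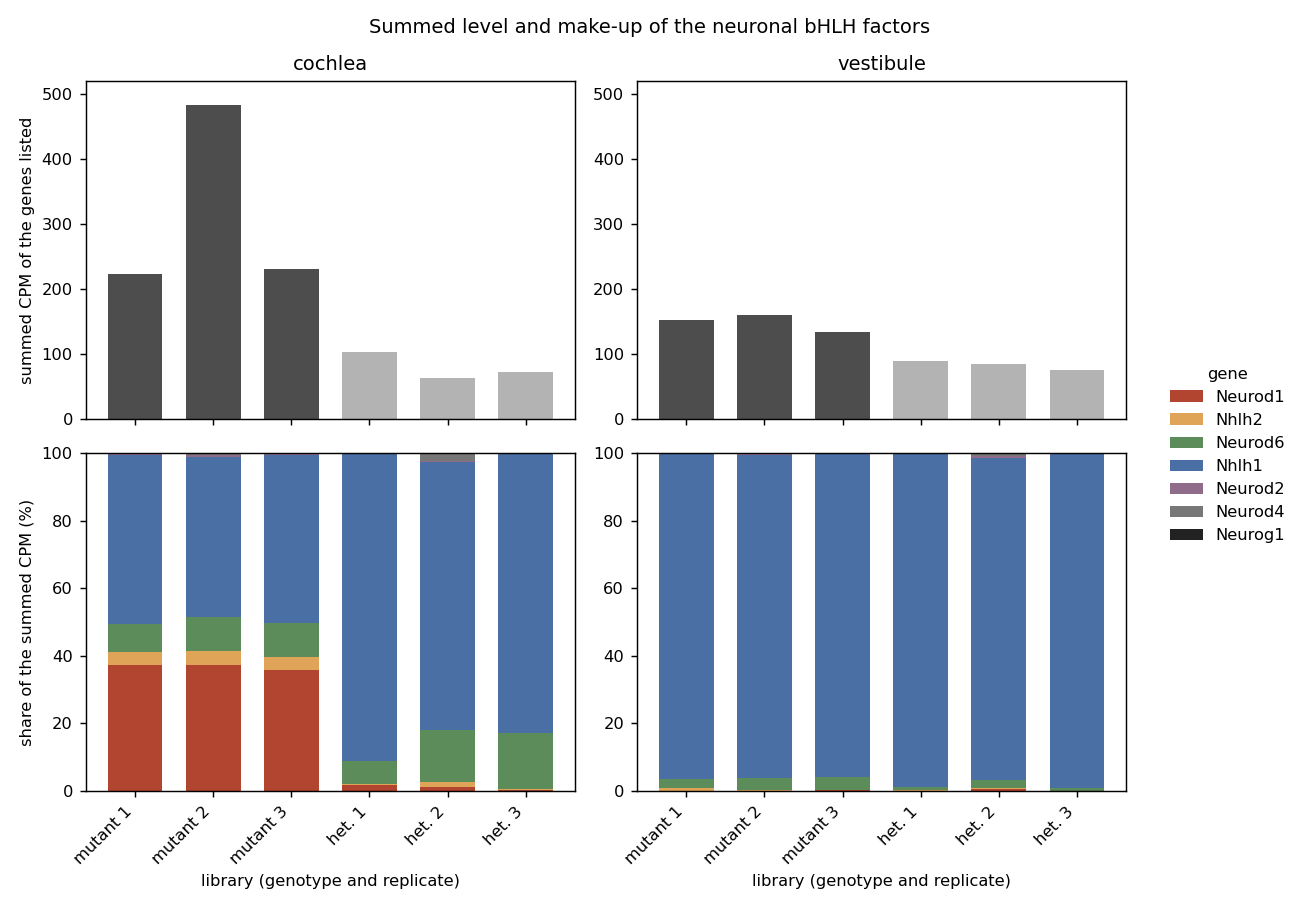
Summed CPM of the listed members by library (dark bars mutants, light bars heterozygotes), and the percent of that sum held by each gene, mutants left of heterozygotes in each organ. The mutant cochlear libraries, at 223 to 484 CPM in sum, have nearly equal shares, with 35.8% to 37.4% from Neurod1, while Nhlh1 holds 95.4% or more in all vestibular libraries.

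In the vestibule, Nhlh1 and Neurod6 were higher in mutants and the other members were at or near the limit of detection in both genotypes. Among 15595 tested genes, Nhlh1 and Neurod6 were the 2 members that passed the filter, and both were called higher, where 2.41% of tested genes were called higher and 1.09% lower. All mutants lay above all heterozygotes for both, an order seen in 10.7% of tested genes. Nhlh1 had 147, 152 and 128 CPM in mutant vestibules, against 87.8, 81.2 and 75.1 CPM in heterozygous vestibules. The groups were tight and well apart, at 142 ± 12.6 CPM in mutants and 81.4 ± 6.33 CPM in heterozygotes (SD, n = 3 each), a log2 fold change of 0.80 ± 0.13 (SE, 95% interval 0.51 to 1.09, limma adjusted p = 0.0125). Neurod6 had 4.38, 5.61 and 5.16 CPM in mutant vestibules, against 0.804, 1.93 and 0.681 CPM in heterozygous vestibules. It was low but separated in all libraries, at 5.05 ± 0.621 CPM in mutants and 1.14 ± 0.688 CPM in heterozygotes (SD, n = 3 each), a log2 fold change of 1.54 ± 0.28 (SE, 95% interval 0.90 to 2.19, limma adjusted p = 0.0229). Only heterozygous replicate 2 reached 1 CPM among heterozygotes, so Neurod6 passed the filter mainly through the mutants.

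Fitted without a replicate block, these vestibular calls were near the threshold. Without both replicate 2 libraries the limma adjusted p was 0.161 for Neurod6 (log2 fold change 1.73) and 0.360 for Nhlh1 (0.75). For Nhlh1 the call was also lost without mutant replicate 2, heterozygous replicate 2 or heterozygous replicate 3, at limma adjusted p values of 0.0777, 0.0734 and 0.0541. For Neurod6 it was lost without any of the libraries except heterozygous replicate 2, at limma adjusted p values of 0.0532 to 0.109, and without the filter (0.0797). With the replicate number as a block, the limma adjusted p was 8.48e-06 for Nhlh1 and 0.000296 for Neurod6. That fit called 10.5% of all tested vestibular genes higher.

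Neurod1 had 0.211, 0.0849 and 0.246 CPM in mutant vestibules (4, 2 and 6 reads), against 0.0446, 0.503 and 0.0681 CPM in heterozygous vestibules (1, 12 and 2 reads). These groups overlapped (exact two-sided permutation p = 1), and without a filter the log2 fold change was -0.01 with a 95% interval of -0.38 to 0.35. Nhlh2 had 1.00, 0.382 and 0.246 CPM in mutant vestibules, against 0.268, 0.252 and 0 CPM in heterozygous vestibules, with overlap between the groups (exact two-sided permutation p = 0.3) and the mutant higher in all 3 same-numbered pairs. Its log2 fold change without a filter was 0.37 with a 95% interval of -0.10 to 0.84. The 34 mutant reads against 12 heterozygous reads gave a scaled ratio of 3.20 (95% interval 1.62 to 6.79, counting error only). Neurod2 had 0.158, 0.764 and 0.246 CPM in mutant vestibules, against 0.179, 0.629 and 0 CPM in heterozygous vestibules (exact two-sided permutation p = 0.6). Neurod4 had 0, 0.127 and 0.0819 CPM in mutant vestibules, against 0, 0.587 and 0 CPM in heterozygous vestibules (exact two-sided permutation p = 1). Neurod1, Neurod2 and Neurod4 were thus under 1 CPM in all 6 vestibular libraries, and Nhlh2 reached it in 1. Per kilobase of exon, Nhlh1 led at 57.8 ± 5.13 CPM in mutant vestibules and 33.0 ± 2.57 CPM in heterozygous vestibules, and Neurod6 followed at 2.35 ± 0.289 and 0.529 ± 0.320 CPM (SD, n = 3 each). The other listed members were at 0.0209 to 0.124 CPM per kilobase in mutants and 0.0320 to 0.0857 in heterozygotes.

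The difference between the organs, the cochlear log2 fold change minus the vestibular one, was tested as an interaction over the 12 libraries. With the filter required in both organs, 14674 genes were tested, and of the members Nhlh1 and Neurod6 could be tested. Neither was called, where 3.14% of tested genes were: the difference was 0.33 for Nhlh1 (95% interval -0.43 to 1.10, limma adjusted p = 0.760) and -0.08 for Neurod6 (95% interval -1.07 to 0.91, limma adjusted p = 0.966). These intervals are wide and do not show that the organs respond alike. Neurod1 and Nhlh2 entered when the filter had to be met in either organ, an alternative chosen after seeing the data, in which 0.750% of 18257 genes were called with a larger cochlear change. The difference was 5.99 ± 0.50 for Neurod1 (SE, 95% interval 4.93 to 7.05, limma adjusted p = 2.03e-05) and 2.75 ± 0.45 for Nhlh2 (SE, 95% interval 1.79 to 3.70, limma adjusted p = 0.00302). With edgeR on the recovered reads it was 7.22 for Neurod1 (adjusted p = 0.0131) and 2.96 for Nhlh2 (adjusted p = 0.377). Without any filter the differences were 5.99 and 2.75 as well (limma adjusted p = 7.45e-05 and 0.00531), and without the 4 replicate 2 libraries 5.36 and 2.52 (limma adjusted p = 0.0128 and 0.0475). Both genes passed the filter through the mutant cochleae. With the replicate block, 6.90% of all 14674 genes were called with a positive and 6.43% with a negative organ difference, and neither Nhlh1 nor Neurod6 was among them. In that fit 7 of 18 tested genes known to act downstream of neural bHLH factors had a positive and 5 a negative difference, against 1 and 3 without the block.

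**Figure D3:**
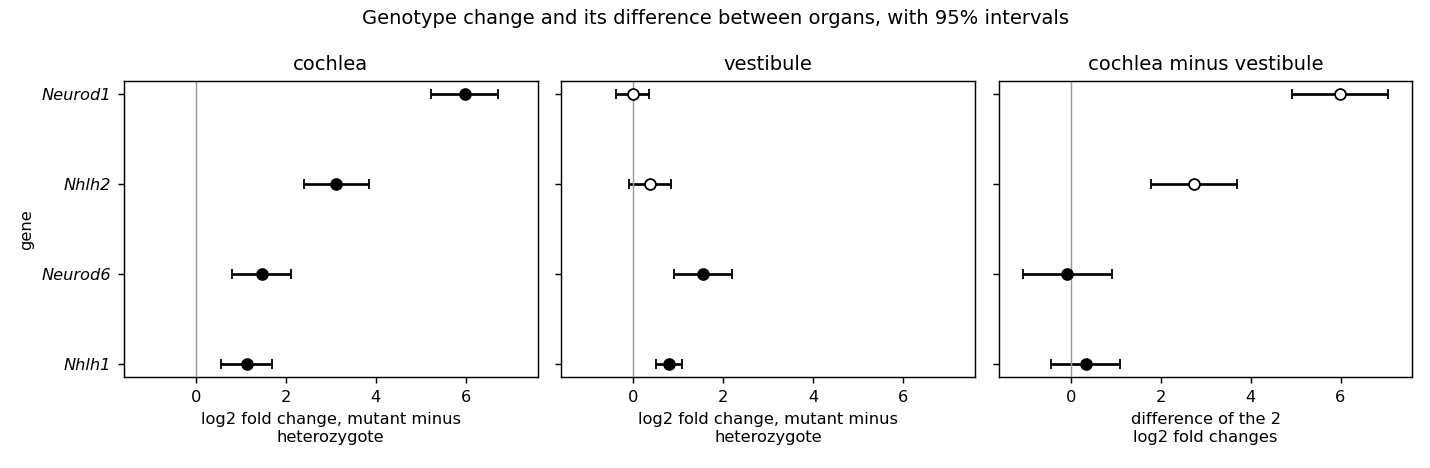
Log2 fold change of the tested genes, mutant minus heterozygote, with 95% intervals, in the cochlea and the vestibule, and the cochlear change minus the vestibular one. Open circles are values from the fit without a filter (vestibule) or with the filter met in either organ (difference). Neurod1 stands at 5.98 in the cochlea and at -0.01 in the vestibule, while the intervals of Nhlh1 and Neurod6 overlap between the organs.

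The E proteins that neuronal bHLH factors pair with were not called in either organ: Tcf3, Tcf4 and Tcf12 had log2 fold changes of 0.30, -0.17 and 0.09 in the cochlea (limma adjusted p = 0.691, 0.676 and 0.901) and of -0.05, -0.13 and -0.25 in the vestibule (limma adjusted p = 0.930, 0.773 and 0.671). Of 10 HLH inhibitors and HES factors, 1 rose in the cochlea and none fell, with a median log2 fold change of 0.33, against 0.05 over all tested cochlear genes. The gene that rose was Id2, an inhibitor of E proteins, with 97.7, 87.1 and 98.4 CPM in mutant cochleae, against 30.6, 32.7 and 35.7 CPM in heterozygous cochleae. Its replicates were tight and far apart between genotypes, and the log2 fold change of 1.49 ± 0.13 (SE, limma adjusted p = 1.73e-05) was kept in all 15 alternatives. In the vestibule Id2 had a log2 fold change of -0.13 (limma adjusted p = 0.805). There, 1 of the same 10 genes fell and none rose, with a median of -0.25, against -0.06 over all tested vestibular genes. It was Heyl, a Notch effector, at 42.0 ± 2.33 CPM in mutants and 77.6 ± 1.74 CPM in heterozygotes (SD, n = 3 each), a log2 fold change of -0.87 ± 0.12 (SE, limma adjusted p = 0.00658), which was not called without both replicate 2 libraries (adjusted p = 0.254). None of 4 tested genes of a list of ETO factors and other cofactors was called in either organ. Without a block 1.90% of all tested cochlear genes were called higher and 2.52% lower, and 2.41% and 1.09% of vestibular genes. Fitted with the replicate number as a block, 4.21% of all tested cochlear genes were called higher and 4.31% lower, and 10.5% and 12.8% of vestibular genes. In these fits 3 of the 10 HLH inhibitors and HES factors rose and 2 fell in the cochlea, and 2 rose and 2 fell in the vestibule. The 2 that rose in the vestibule were Hes6 and Hey1, and Hes6 is also counted among the downstream genes that rose there. With that block Tcf12 fell and Lmo4 and Runx1t1 of the cofactor list rose in the vestibule. No E protein or gene of the cofactor list was called in the cochlea.

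Of 13 other neural bHLH genes, 2 passed the cochlear filter and 4 the vestibular one. Bhlhe22, a factor of maturing neurons, rose in the cochlea, with 2.37, 3.36 and 2.55 CPM in mutants, against 0.254, 0 and 0.107 CPM in heterozygotes. It passed the filter through the mutants only (log2 fold change 1.74 ± 0.26, SE, limma adjusted p = 0.000998), and in the vestibule its log2 fold change was 0.94 (limma adjusted p = 0.138). Atoh1, the hair cell bHLH factor, rose in the vestibule, with 138, 77.5 and 103 CPM in mutants, against 31.8, 17.5 and 28.9 CPM in heterozygotes, without overlap. Its log2 fold change was 1.99 ± 0.27 (SE, limma adjusted p = 0.00635), and 0.0561 was the adjusted p without both replicate 2 libraries. In the cochlea Atoh1 averaged 69.3 ± 3.96 CPM in mutants and 51.0 ± 13.9 CPM in heterozygotes (SD, n = 3 each, limma adjusted p = 0.254). With the replicate block, both tested genes rose in the cochlea, and Atoh1, Bhlhe22 and Olig1 rose in the vestibule.

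Of 20 genes known to lie downstream of neural bHLH factors, a list chosen with earlier results of these data known, 19 passed the cochlear filter. Of these 7 rose and 1 fell, where 1.90% of all tested cochlear genes were called higher and 2.52% lower. Their median log2 fold change was 0.50, against 0.05 over all tested genes. The neuronal tubulin gene Tubb3 had 19.0, 70.1 and 35.7 CPM in mutant cochleae, against 2.79, 3.58 and 4.49 CPM in heterozygous cochleae. Stmn2, a regulator of growing neurites, had 75.7, 175 and 95.2 CPM in mutant cochleae, against 17.4, 22.0 and 36.0 CPM in heterozygous cochleae. Both genes were separated between the genotypes and, like the members, highest in mutant replicate 2, with log2 fold changes of 3.03 ± 0.36 and 2.13 ± 0.29 (SE, limma adjusted p = 0.000168 and 0.000484). The neuronal RNA-binding protein genes Elavl3 and Elavl4 rose by 1.82 and 1.21 on the log2 scale (limma adjusted p = 0.000996 and 0.00497), and the transcription factor genes Pou4f1, Ebf2 and Insm1 by 1.43, 1.31 and 1.06 (limma adjusted p = 0.0245, 0.0162 and 0.0428). Dll3, a Notch ligand gene of newly born neurons and hair cells, fell by 1.83 on the log2 scale, to 2.75, 3.23 and 1.62 CPM in mutant cochleae, against 10.3, 11.3 and 12.4 CPM in heterozygous cochleae (limma adjusted p = 0.000586). Tubb3, Stmn2, Elavl3 and Dll3 kept their calls in all 15 alternatives. Elavl4 lost its call without both replicate 2 libraries (adjusted p = 0.0604, limma). Ebf2 lost it there, without mutant replicate 2 and with edgeR, at adjusted p values of up to 0.119. Pou4f1 lost its call in 5 of the 15, among them without mutant replicate 1, mutant replicate 2 or heterozygous replicate 1, at adjusted p values of up to 0.149. Insm1 lost its call in 9, among them without any library except mutant replicate 3, at up to 0.198 (limma and edgeR). With the replicate block 10 of the 19 downstream genes rose and 2 fell in the cochlea, where 4.21% of all tested genes were called higher and 4.31% lower. The block added Dcx, Ebf3 and Ntrk3 to those that rose and Dll1 to those that fell. The 12 inner ear neuron markers included 3 that rose in the cochlea (Nefm, Nell2 and Snap25) and none that fell, and their part in these changes was not tested.

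In the vestibule 18 of the 20 downstream genes were tested, of which 1 rose and 1 fell, with a median of 0.44, against -0.06 over all tested genes. Of all tested vestibular genes 2.41% were called higher and 1.09% lower. Elavl4 had 30.8, 31.9 and 36.7 CPM in mutant vestibules, against 3.21, 4.49 and 3.85 CPM in heterozygous vestibules, a wide gap between tight groups. Its log2 fold change was 2.82 ± 0.19 (SE, limma adjusted p = 0.000286), which was kept in all 15 alternatives. Ntrk2, a neurotrophin receptor gene that is also in the inner ear neuron list, averaged 27.8 ± 4.99 CPM in mutants and 55.0 ± 10.9 CPM in heterozygotes (SD, n = 3 each), a log2 fold change of -0.95 ± 0.20 (SE, limma adjusted p = 0.0412). It lost that call in 10 of 15 alternatives, among them without any library except heterozygous replicate 3, at adjusted p values of up to 0.338. With the replicate block, 8 of the 18 rose and 2 fell, where 10.5% of all tested vestibular genes were called higher and 12.8% lower. Of the inner ear neuron markers tested in the vestibule, Nefl, Nefm, Nell2 and Snap25 rose and Ntrk2, Scg2 and Sncg fell. The summed CPM of 10 olfactory sensory neuron markers was 209 to 226 in mutant vestibules, against 65.9 to 81.7 in heterozygous vestibules. Among the 5 tested, Rtp1 rose and Ano2 fell, and the median log2 fold change was -0.16, so the sum does not stand for each marker. The part of these neuron markers in the vestibular results was not tested.

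**Figure D4:**
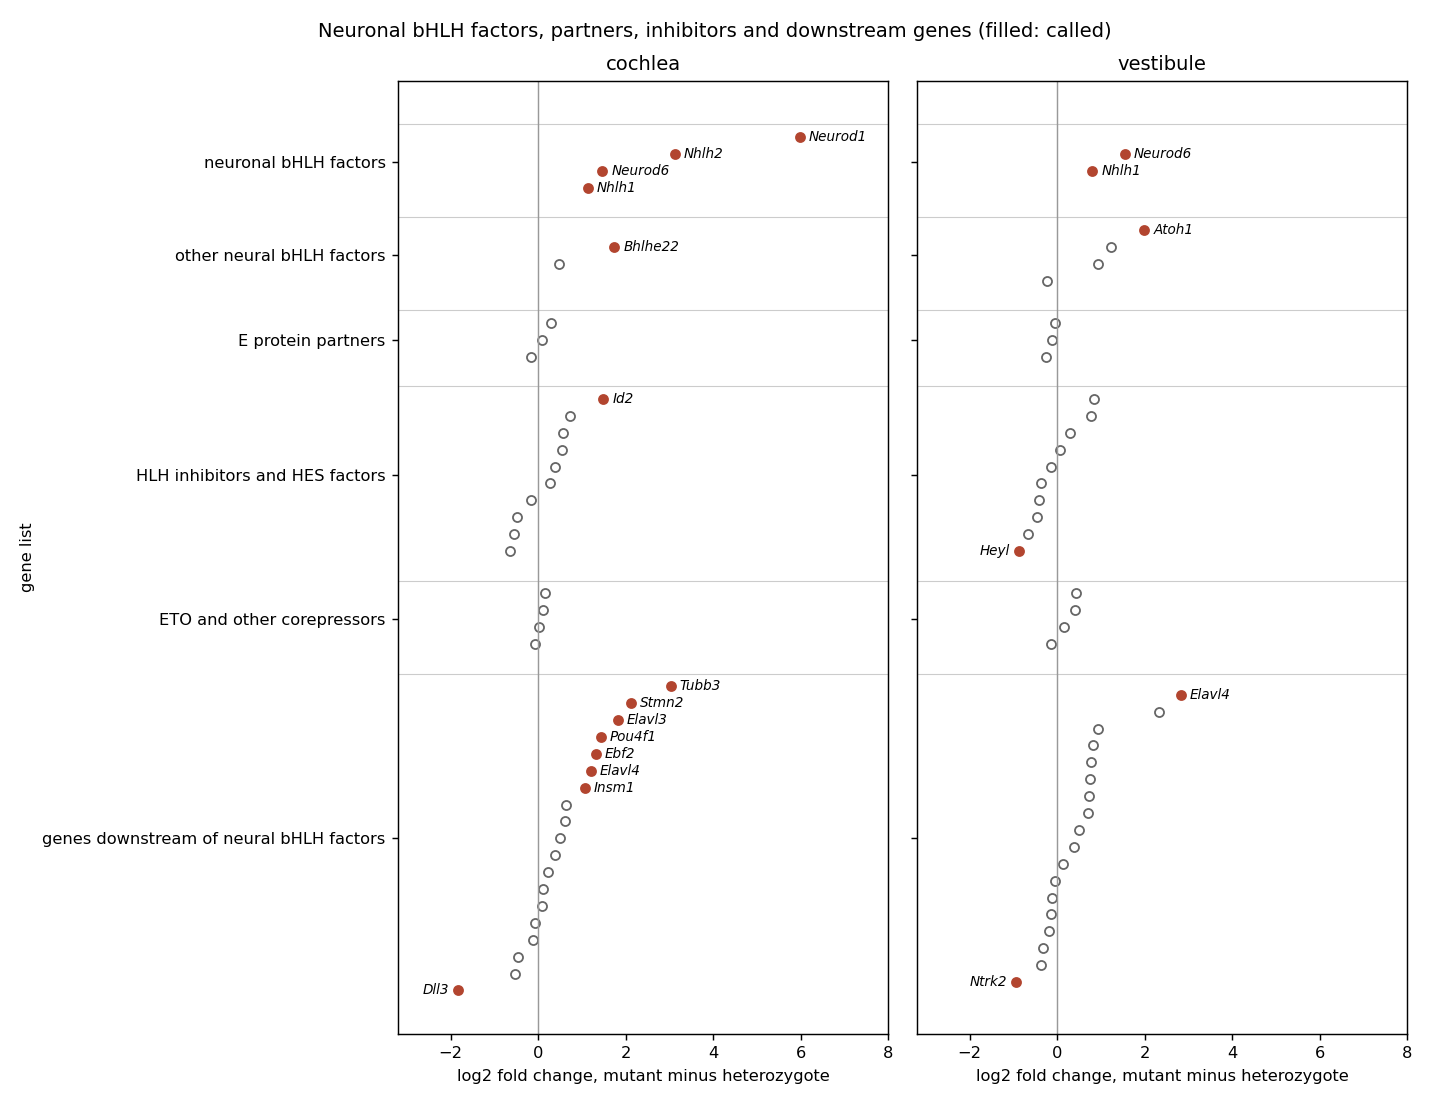
Log2 fold change, mutant minus heterozygote, of each tested gene of the 6 gene lists in the cochlea and the vestibule. Filled points were called at an adjusted p under 0.05 (limma) and carry their symbols, and open points were not called. In the cochlea the downstream genes reach from -1.83 for Dll3 to 3.03 for Tubb3, and the 3 E proteins lie near 0 in both organs.

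The genes most like Neurod1, Neurod6 and Nhlh1 were sought over the 12 libraries by the root mean square difference of log2(CPM + 1) after subtracting the mean of the heterozygotes of each organ, among the genes tested in both organs. The closest to Nhlh1 were Tuba1a at 0.256, Kif5c at 0.260 and A730020E08Rik at 0.261, where the median of all genes was 0.816. Tuba1a, a tubulin gene, averaged 1027 ± 281 CPM in mutant cochleae and 418 ± 19.3 CPM in heterozygous cochleae (SD, n = 3 each). Closest to Neurod6 were Syt4, a synaptotagmin gene, at 0.166, Phactr1 at 0.288 and Tubb2b at 0.292, against a median of 1.17. Syt4 rose in both organs, by 1.37 on the log2 scale in the cochlea and by 1.64 in the vestibule (limma adjusted p = 0.00365 and 0.0128). For Neurod1 the nearest were Casr at 1.32, Sphkap at 1.35 and Gap43 at 1.51, against a median of 3.01. Such distances grow with the size of a change and were not compared between members. Neurod1 itself failed the vestibular filter, and other genes that failed it, Nhlh2 among them, were not candidates. Unlike Neurod1, Casr rose in the vestibule, by 1.86 on the log2 scale (limma adjusted p = 0.00437), while Sphkap and Gap43 were not called there. Gap43, a protein gene of growing axons, averaged 118 ± 55.7 CPM in mutant cochleae and 11.9 ± 1.89 CPM in heterozygous cochleae, and 6.10 ± 0.508 CPM in mutant vestibules and 3.32 ± 0.775 CPM in heterozygous vestibules (SD, n = 3 each).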

How the data were processed

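The authors deposited CPM (counts per library total) in a table for each library, per the file headers. The submitters' processing notes name TopHat and GRCm38. The annotation, the counting tool and whether strand was used are not given in the sources used here. All deposited CPM were whole multiples of the value of 1 read (100% of values, tolerance 1e-06), so read counts were recovered. Per the labels, the 3 libraries of a group are biological replicates.

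Within an organ, genes that reached 1 CPM in 3 or more of 6 libraries were tested by limma 3.58.1 (trend, R 4.3.3) on log2(CPM + 1), with Benjamini-Hochberg adjustment over all tested genes and calls at an adjusted p under 0.05. The organ difference was an interaction over 12 libraries. Untested members were compared by exact two-sided permutation tests (scipy 1.17.1). Intervals of read ratios and the floor of 3 reads cover counting error only. The fits were tested on simulated counts with the same spread for every gene and no pairing of replicates. That test does not show how the fits perform for genes as variable as the members.

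Alternatives were edgeR 4.0.16 (quasi-likelihood, trimmed-mean scaling) on the recovered reads, median-of-ratios scaling, pseudocounts of 0.25 and 4, a filter of 5 CPM or none, a replicate block, and leaving out libraries. Leaving out the replicate 2 libraries together and the filter met in either organ were added after seeing the data. Deviations from the group means correlated between same-numbered mutants and heterozygotes (0.226 to 0.420 in the cochlea, 0.508 to 0.766 in the vestibule). Differently numbered ones correlated at -0.240 to 0.0127 in the cochlea and at -0.640 to 0.318 in the vestibule. The positive vestibular values, 0.220 and 0.318, were between replicates 2 and 3. The numbers were taken to pair the libraries, from these correlations alone. Blocked counts of the gene lists are given beside those without the block within each organ.

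Members and gene lists were chosen with earlier results of these data known. All members, all called list genes and the 3 genes most like Neurod1 and each member tested in both organs are named. Positions are from GENCODE M21 (GRCm38) and promoters from RefSeq GRCm38.p6, in which all 7 members were found.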

Additional observations from a re-analysis of the deposited data

Results flagged for a closer look

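The change with genotype differed between cochlea and vestibule for these genes, by the interaction over 12 libraries, given as the cochlear log2 fold change minus the vestibular one with the limma adjusted p. Organ and library kit cannot be told apart here. For Neurod1 the difference was 5.99 (adjusted p = 2.03e-05) and for Nhlh2 2.75 (adjusted p = 0.00302), both with the filter met in either organ, which was chosen after seeing the data and which both passed through the mutant cochleae. With edgeR the call of Nhlh2 was lost (2.96, adjusted p = 0.377) and that of Neurod1 was kept (7.22, adjusted p = 0.0131). Among list genes tested in both organs, Id2 differed by 1.62 (adjusted p = 0.000718) and Dll3 by -2.52 (adjusted p = 0.000484), and both calls were kept in all 21 alternatives. Elavl4 differed by -1.61 (adjusted p = 0.0110, lost in 3 of 21 alternatives), Dll1 by -1.29 (adjusted p = 0.0296, lost in 7 of 21) and Atoh1 by -1.52 (adjusted p = 0.0264, lost in 9 of 21). Stmn2 differed by 2.17 (adjusted p = 0.0456), a call lost in 13 of 20 alternatives.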

How the results depend on the processing

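Neurod1 and Nhlh2 kept their cochlear calls in all 15 alternatives, with log2 fold changes of 4.54 to 7.08 and 1.82 to 4.60. The number of genes called, counted anew in each fit, was 794 in the cochlea, 546 to 801 with 1 library left out, 379 without both replicate 2 libraries and 1532 with the replicate block. In the vestibule it was 546, then 226 to 522, 31 without both replicate 2 libraries, 863 without both replicate 1 libraries, 358 without a filter and 3634 with the block. For the organ difference it was 461, then 302 to 453, 93 without the 4 replicate 2 libraries and 1955 with the block. Members called were 4 in the cochlea, 3 to 4 with 1 library left out and 2 without both replicate 2 libraries. They were 2 in the vestibule, 0 to 1 with 1 library left out, 1 with a filter of 5 CPM or none and 0 without both replicate 2 libraries. For the organ difference they were 0, with 0 when 1 library was left out, and 2 without a filter or with the filter met in either organ. The uncalled organ difference changed sign for Neurod6 with a pseudocount of 4 (0.42), without cochlear replicate 3 and vestibular replicate 1 (0.23) and over single libraries left out (-0.48 to 0.20), and for Nhlh1 without the 4 replicate 2 libraries (-0.15) and over single libraries (-0.0029 to 0.59). The block changed no member's call. The cause of these shifts was not tested. Members under 1 CPM in both genotypes rest on a few reads, so small changes in them were not detectable at this depth.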
